A study of Mus musculus with 13 samples.

Results

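Hippo signalling reaches the kinases MST1 and MST2 (genes Stk4 and Stk3) through a layer of upstream and partner proteins, and 9 genes of that layer are described here. They are the TAO kinase genes Taok1, Taok2 and Taok3, the MAP4K kinase genes Map4k1 and Map4k4, the membrane scaffold gene Nf2, the RASSF family genes Rassf1 and Rassf2, and Strn3, a subunit gene of the STRIPAK phosphatase complex. They were taken by symbol from a table of 26720 genes, and all 9 were in it and passed the filter on low counts that left 24068 genes. The study sequenced RNA of CD4+YFP+ spleen cells in 13 libraries, from mice of around 4 to 5 weeks in which YFP and Cre are made from the Foxp3 locus, the defining gene of regulatory T (Treg) cells. Among the libraries, 6 are labelled Foxp3YFPCre/+Stk3∆/∆Stk4∆/∆ (deleted), where Cre removes both kinase genes from cells that express Foxp3. The other 7 are labelled Foxp3YFPCre (control) and carry the same Cre without the deletion. The labels give no zygosity of Cre for the controls, so Cre dose and deletion cannot be told apart. They do not say which mouse or how many mice gave a library, so the p-values cover only library-to-library spread, which may be technical.

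In the pathway as it is usually drawn, TAO kinases switch on MST kinases by phosphorylating their activation loop, and MAP4K kinases act beside MST on the next kinases, LATS. The protein of Nf2, merlin, brings LATS to the cell membrane. RASSF proteins bind MST kinases through a shared coiled-coil domain, and STRIPAK dephosphorylates MST through protein phosphatase 2A. In T cells Map4k1 (HPK1) is best known as a brake on antigen receptor signalling.

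Of the 9 genes, only Map4k1 passed the test between deleted and control libraries, and it was lower in deleted cells. The other 8 did not pass. In log2 fold change, 6 genes lay below 0 and 3 above, with a median of -0.39 over the 9, against 0.06 over all genes tested and -0.36 over the 4325 genes whose mean level was in the range of the members, 53.6 to 212 CPM (counts per 1000000 reads, scaled with TMM, the trimmed mean of M values). Over all genes, 8.52% were called lower and 1.66% higher at an adjusted p under 0.05 (edgeR's quasi-likelihood test with Benjamini-Hochberg adjustment). In the members' range of levels 22.4% were called lower, so 1 lower gene in 9 is no more than that background. Fewer cells of a type and less RNA per cell cannot be told apart in these sorted populations.

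Libraries differed in ways that touch every value below. Total counts were 2671660 to 4569655 in deleted and 3705511 to 8323919 in control libraries, a difference with a two-sided exact permutation p of 0.00816. The receptor genes of the olfactory and vomeronasal organs, not known as T cell genes, took 0.761 to 1.89% of the counts in deleted and 0.371 to 1.07% in control libraries, with an exact permutation p of 0.00641. The median receptor gene stood at 2.84 to 8.23 reads per 1000000 in deleted and 1.56 to 4.32 in control libraries. These values are not scaled with TMM. Transcript lengths were not used, so they are not set against the levels of the 9 genes. Deleted replicate 1 had the lowest receptor share of its group. It also had the highest deleted value of 6 of the 9 genes and the lowest deleted value of 2. Summed Treg markers (Foxp3, Il2ra, Ctla4, Ikzf2, Tnfrsf18, Cd4 and Cd3e) were at 1009 to 1458 reads per 1000000 in deleted and 1191 to 2725 in control libraries, with 5 of 7 genes lower. Foxp3 itself was at 44.0 ± 16.2 CPM (SD, n = 6) in cells with the deletion and 54.1 ± 12.1 CPM (SD, n = 7) in control cells and did not pass. The deleted genes themselves did not pass by counts over the whole gene, neither Stk3 (log2 fold change -0.01, SE 0.20, adjusted p = 0.981 by edgeR) nor Stk4 (-0.31, SE 0.33, adjusted p = 0.576). Stk3 was at 26.8 to 44.2 CPM in deleted and 24.8 to 47.9 CPM in control libraries. Stk4 was at 57.9 to 394 CPM in deleted and 135.7 to 290.5 CPM in control libraries. For Stk4, 3 deleted libraries lay below every control library and 1, deleted replicate 1, lay above. Whole-gene counts are no check on which exons were removed.

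**Figure D1:**
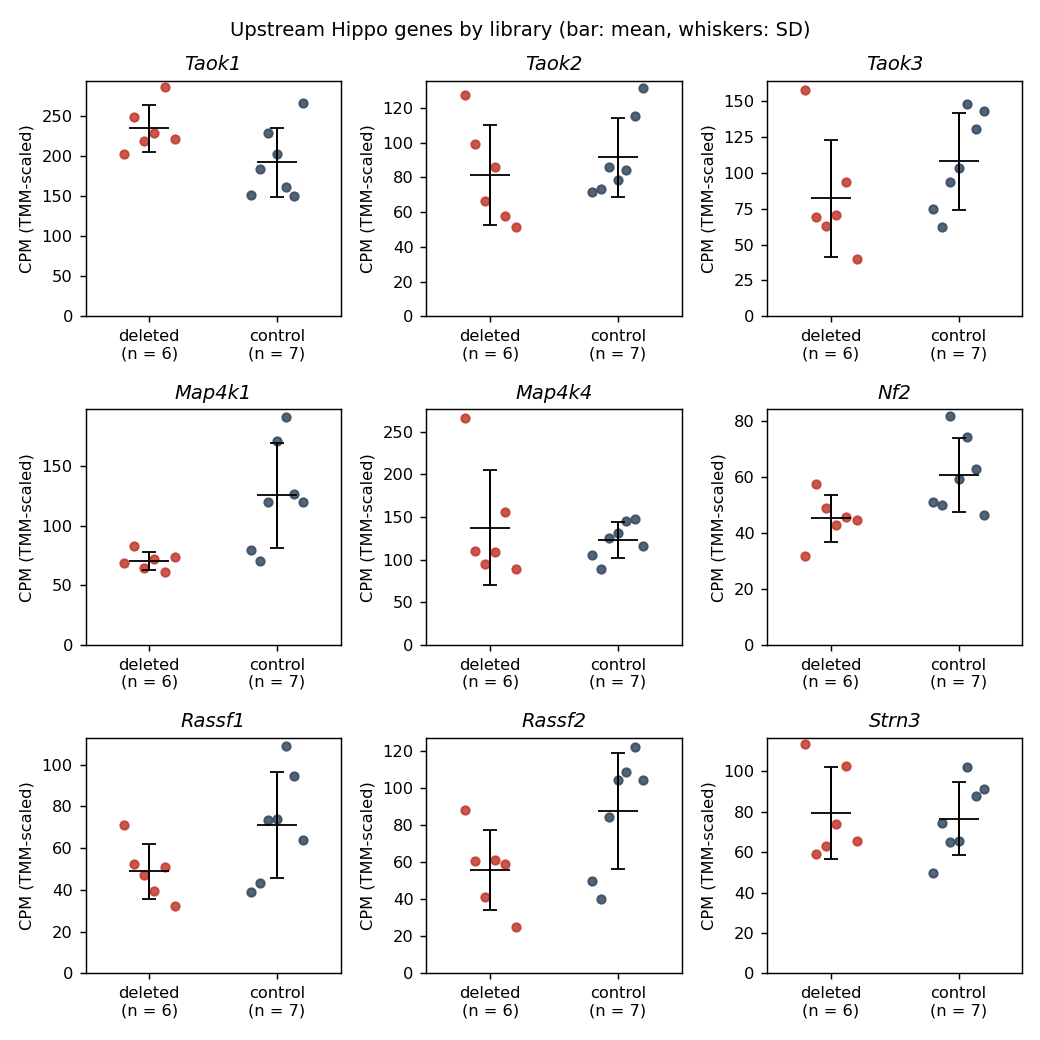
Levels of the 9 genes (y axes, TMM-scaled CPM, each from 0) in the 6 deleted and 7 control libraries (x axis). Each point is 1 library, in order of replicate number, and the bar and whiskers are the mean and SD. Map4k1 is at 61.3 to 82.9 CPM in deleted libraries, of which 3 lie below the control range of 70.2 to 191 CPM and 3 at its low end.

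None of the 3 TAO kinase genes passed over all genes. Taok1 (gene number 216965; GRCm38 chromosome 11, 77529162 to 77625359) encodes a kinase that phosphorylates MST and also MARK kinases of the microtubule network. Its lowest, median and highest levels were 203, 225 and 286 CPM in deleted libraries and 151, 184 and 266 CPM in control libraries. The groups overlapped, and 1 deleted library (replicate 5) lay above every control library. This gave a log2 fold change of 0.29 (SE 0.22, 95% interval -0.16 to 0.73, adjusted p = 0.422). Taok2 (gene number 381921; chromosome 7, 126865674 to 126886296), which regulates the cytoskeleton and stress kinases, was at 51.7, 76.0 and 127 CPM (lowest, median, highest) in deleted and 71.7, 84.3 and 131 CPM in control libraries. Deleted replicates 3, 5 and 7 lay below every control library, while replicate 1 lay near the top of the control range. Its log2 fold change was -0.17 (SE 0.23, 95% interval -0.64 to 0.30, adjusted p = 0.68). Taok3 (gene number 330177; chromosome 5, 117120111 to 117275101), a kinase tied to T cell receptor signalling, was at 40.0, 69.9 and 158 CPM in deleted and 62.1, 103 and 148 CPM in control libraries. Deleted replicate 1 was above and replicate 7 below every control library, and the other 4 lay in the lower part of the control range. For Taok3 the log2 fold change was -0.39 (SE 0.27, 95% interval -0.95 to 0.17, adjusted p = 0.383), and -0.69 without deleted replicate 1 (adjusted p = 0.0716).

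Map4k1 (gene number 26411; chromosome 7, 28982050 to 29003279) was lower in deleted libraries. Its lowest, median and highest levels were 61.3, 70.5 and 82.9 CPM in deleted libraries and 70.2, 120.4 and 191 CPM in control libraries. Deleted libraries were close together at 70.6 ± 7.57 CPM (SD, n = 6), whereas control libraries were spread at 125.6 ± 44.0 CPM (SD, n = 7). In the control group 5 libraries lay above every deleted library, and the other 2, replicates 1 and 2 at 79.5 and 70.2 CPM, lay among the deleted ones. Deleted replicates 1, 3 and 5 lay below every control library. The log2 fold change was -0.83 (SE 0.23, 95% interval -1.30 to -0.36), with an adjusted p of 0.0231 by edgeR's quasi-likelihood test. In the authors' deposited table Map4k1 has a mean log2 fold change of -0.81 and a mean false discovery rate of 0.0217, as its headers name them, and the other 8 genes have mean false discovery rates of 0.153 to 0.92.

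The call on Map4k1 was not kept in every fit. It was lost when genes of at least 50 mean CPM were fitted alone (-0.38, adjusted p = 0.0645) and when all genes were scaled by those genes (-0.38, adjusted p = 0.131). The same held in a fit with the receptor share added (-0.22, adjusted p = 0.865), a term whose correlation with genotype was 0.692, and among the 9 libraries, 5 deleted and 4 control, where that share was 0.7 to 1.4% (-0.48, adjusted p = 0.458). Leaving out deleted replicate 3 or 5 gave an adjusted p of 0.0579 or 0.0687, and leaving out control replicate 4 or 5 gave 0.058 or 0.0537.

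Map4k1 moved with the receptor share among control libraries. Control replicates 5 and 4, with shares of 0.371 and 0.472%, had 191 and 171 CPM of Map4k1, while control replicates 1 and 2, with shares of 0.953 and 1.07%, had 79.5 and 70.2 CPM. These libraries stood in the same order by depth, with total counts of 8323919, 7467936, 4721174 and 3705511. Their summed Treg markers were 2725, 2574, 1572 and 1191 reads per 1000000, and Rassf2 was at 109, 104.6, 50.2 and 40.0 CPM. Of libraries close in share, deleted replicate 1 (0.761%) had 68.7 CPM and control replicate 3 (0.761%) had 119.8 CPM, while deleted replicate 4 (1.14%) had 72.3 CPM and control replicate 2 (1.07%) had 70.2 CPM. Deleted replicate 7, with the largest share of 1.89%, had 73.6 CPM, inside the range of its group. B cell markers moved with genotype as well: their summed level was 193 to 229 reads per 1000000 in deleted and 432 to 823 in control libraries, with 3 of 7 genes lower (Ighm, Cd74 and Cd79b), 1 higher (Ms4a1) and none at 0 in any library. Cd79a, a defining B cell gene, averaged 6.78 CPM over the deleted libraries and 8.52 CPM over the control libraries. The part of receptor share, depth or either marker sum in the Map4k1 value was not tested.

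**Figure D2:**
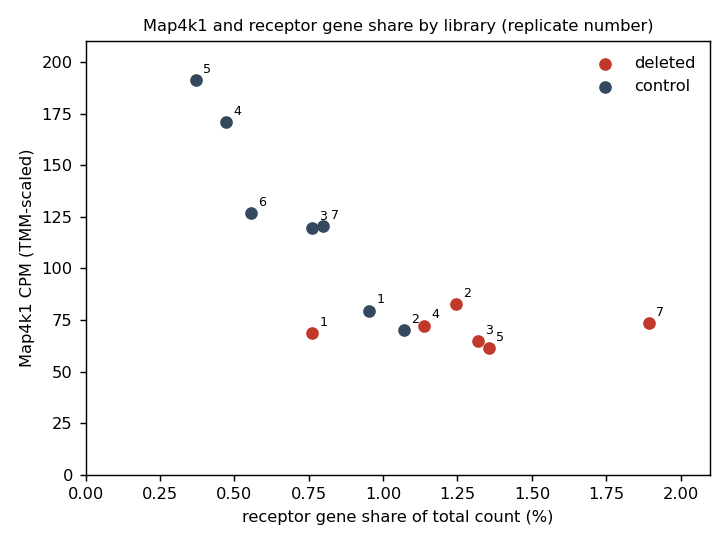
Map4k1 level (y axis, TMM-scaled CPM) against the share of olfactory and vomeronasal receptor genes in the total count (x axis, %) for 6 deleted and 7 control libraries, each point 1 library with its replicate number. Control libraries run from 191 CPM at 0.371% to 70.2 CPM at 1.07%, and the 6 deleted libraries lie at 61.3 to 82.9 CPM across shares of 0.761 to 1.89%.

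Since Map4k1 is the gene that passed, its annotated promoter windows are shown (RefSeq, GRCm38.p6, plus strand, 250 bases before to 50 bases after each start). Capitals mark matches on either strand to the letters CCGGAAG (a core read by ETS factors) in the first window and to GGG, any 5 bases, then CC (a loose NF-kB pattern) in the second, where 5 matches, some overlapping, form 4 runs.
Map4k1 window 1, chr7:28981800-28982099: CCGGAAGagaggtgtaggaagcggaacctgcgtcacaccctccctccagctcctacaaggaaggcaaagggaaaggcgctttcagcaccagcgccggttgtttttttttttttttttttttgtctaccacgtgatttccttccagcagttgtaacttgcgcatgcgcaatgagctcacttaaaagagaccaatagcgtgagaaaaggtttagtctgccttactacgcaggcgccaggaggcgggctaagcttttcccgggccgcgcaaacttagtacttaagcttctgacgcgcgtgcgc
Map4k1 window 2, chr7:28982604-28982903: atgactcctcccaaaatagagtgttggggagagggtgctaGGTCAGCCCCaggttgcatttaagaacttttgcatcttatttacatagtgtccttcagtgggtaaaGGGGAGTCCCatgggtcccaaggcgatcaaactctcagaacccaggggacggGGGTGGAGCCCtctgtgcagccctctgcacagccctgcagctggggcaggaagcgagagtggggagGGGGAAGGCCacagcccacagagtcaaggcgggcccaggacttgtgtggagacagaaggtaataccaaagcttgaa
Of 32851 windows of this length, 8.86% hold the first pattern and 50.8% the second, so neither is rare. Over the 11 windows of 8 of the genes, 8 held the NF-kB pattern, 2 held CCGGAAG, 1 (of Rassf2) held GGAATG, the core read by TEAD factors, which 14.7% of all windows hold, and 0 held TGTTTAC, a forkhead core found in 3.65% of all windows. Such matches describe letters in a window and show no binding.

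Map4k4 (gene number 26921; chromosome 1, 39900902 to 40026310), which acts on LATS and on JNK signalling, was at 89.3, 109.6 and 266 CPM (lowest, median, highest) in deleted and 89.3, 125.0 and 148 CPM in control libraries. Deleted replicates 1 and 5, at 266 and 156 CPM, lay above every control library, and the other 4 lay inside the control range. Its fold change on the log2 scale was 0.16 (SE 0.25, 95% interval -0.35 to 0.67, adjusted p = 0.718), and -0.14 without deleted replicate 1 (adjusted p = 0.709). The direction of Map4k4 therefore rested on that library.

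Nf2 (gene number 18016; chromosome 11, 4757639 to 4849544) was at 31.8, 45.0 and 57.4 CPM in deleted and 46.2, 59.3 and 81.6 CPM in control libraries. Of the deleted libraries, 4 of 6 lay below every control library, and 4 of 7 control libraries lay above every deleted one. The log2 fold change was -0.43 (SE 0.20, 95% interval -0.83 to -0.02), and it did not pass over all genes (adjusted p = 0.168 by edgeR). When genes of at least 50 mean CPM were fitted alone it was -0.03 (adjusted p = 0.913).

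The RASSF genes had the next most negative values after Map4k1. Rassf1 (gene number 56289; chromosome 9, 107551434 to 107562267), a tumour suppressor gene whose protein binds MST, was at 32.5, 48.9 and 70.9 CPM in deleted and 38.8, 73.6 and 109 CPM in control libraries. Deleted replicate 7 lay below every control library and 4 control libraries lay above every deleted one. Its log2 fold change was -0.54 (SE 0.24, 95% interval -1.04 to -0.04, adjusted p = 0.153). Rassf2 (gene number 215653; chromosome 2, 131992850 to 132030416), whose protein binds and stabilises MST, was at 24.8, 60.1 and 88.3 CPM in deleted and 40.0, 104.6 and 122 CPM in control libraries. Here too deleted replicate 7 was lowest of all and 4 control libraries were above every deleted one. For Rassf2 the log2 fold change was -0.65 (SE 0.28, 95% interval -1.22 to -0.08, adjusted p = 0.131). Rassf2 passed without control replicate 2 (-0.77, adjusted p = 0.0363) and in limma-voom with sample weights (-0.74, adjusted p = 0.0351), a fit that called 12.2% of all genes lower. With the receptor share in the model Rassf1 and Rassf2 were at 0.23 and 0.22, with adjusted p of 0.848 and 0.88.

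Strn3 (gene number 94186; chromosome 12, 51608541 to 51692351), a regulatory B subunit that ties the phosphatase to STRIPAK, was at 59.2, 69.7 and 113 CPM in deleted and 49.8, 74.3 and 102 CPM in control libraries. Deleted replicates 1 and 5, at 113 and 102.6 CPM, lay above the highest control library, at 102.2 CPM, and the others overlapped. Strn3 had a log2 fold change of 0.06 (SE 0.22, 95% interval -0.39 to 0.50, adjusted p = 0.899).

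The values of the 9 genes depended on scaling. When the 5204 genes of at least 50 mean CPM were scaled and fitted alone, values moved up by a median of 0.40 on the log2 scale. Relative to those genes, Taok1 rose (0.65, SE 0.20, adjusted p = 0.0242) and Map4k4 rose (0.51, SE 0.18, adjusted p = 0.0475), while 9.38% of the genes were called higher and 15.6% lower. In that fit 0 of the 9 genes were lower. It was not repeated without deleted replicate 1, the library with the highest Map4k4 level. Scaling all genes by the same set kept the call on Taok1 (0.65, adjusted p = 0.0461, with 3.66% of all genes higher) and not that on Map4k4 (0.51, adjusted p = 0.0871). Taok2, at -0.17 in the fit over all genes, was at 0.17 in both.

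**Figure D3:**
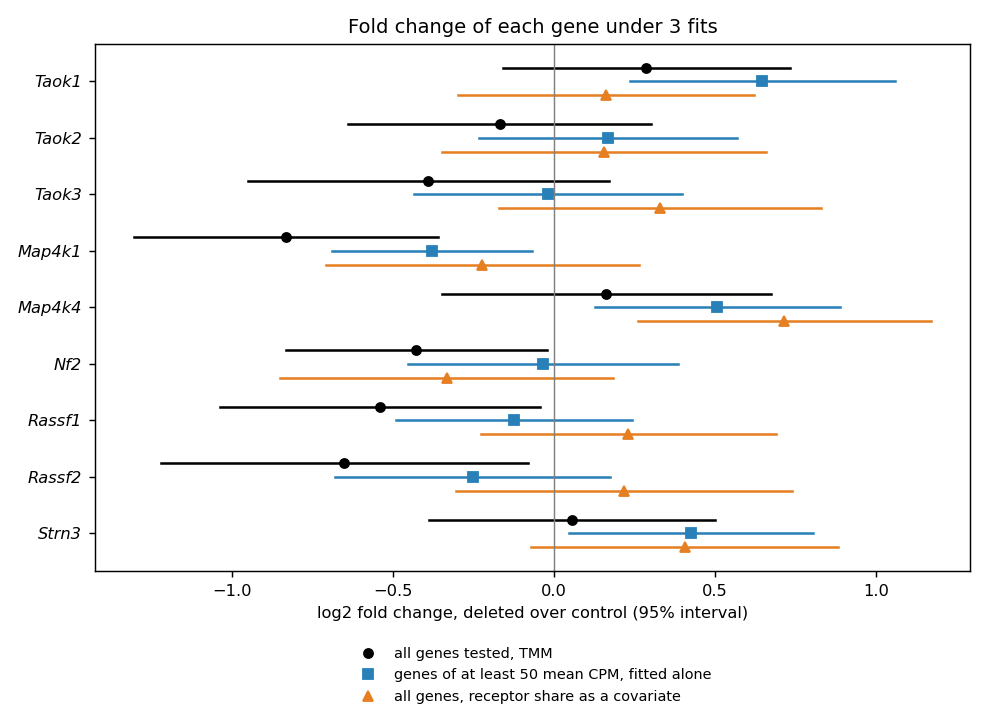
Log2 fold change of deleted over control (x axis) with its 95% interval for each gene (rows), in the fit over all genes (circles), in the fit of genes of at least 50 mean CPM alone (squares) and in the fit that adds the receptor share (triangles). Map4k1 is below 0 in all 3 fits, at -0.83, -0.38 and -0.22, whereas Rassf1 and Rassf2 lie above 0 with the covariate.

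Ratios of counts between related genes in the same library do not depend on scaling. Of 5 ratios compared, that of Map4k4 to Map4k1 differed between the groups. It was 1.21, 1.48 and 3.87 (lowest, median, highest) in deleted libraries and 0.759, 1.04 and 1.33 in control libraries. Deleted replicates 1, 3, 4 and 5 lay clearly above the control range, and replicates 2 and 7, at 1.33 and 1.21, lay at its upper end. On the log2 scale the mean was 0.85 ± 0.65 (SD, n = 6) in cells with the deletion and 0.03 ± 0.33 (SD, n = 7) in control libraries, a difference of 0.82 (two-sided exact permutation p = 0.00291, adjusted over the 5 ratios 0.0146). With each library left out in turn the difference was 0.61 to 0.94 and the adjusted exact permutation p was 0.00631 to 0.0433. It did not pass where the receptor share was 0.7 to 1.4% (0.78, adjusted p = 0.278 by exact permutation).

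Within the TAO kinases, the ratio of Taok1 to Taok3 was 1.29, 3.37 and 5.52 in deleted libraries and 1.09, 1.95 and 2.96 in control libraries. The 5 deleted libraries other than replicate 1 lay above every control library. The log2 difference was 0.76 (two-sided exact permutation p = 0.0495, adjusted 0.124). The ratio of Taok1 to Taok2 was 1.60, 2.98 and 4.92 in deleted and 1.30, 2.11 and 2.65 in control libraries, a log2 difference of 0.51 (two-sided exact permutation p = 0.0874, adjusted 0.146). Neither passed, and both did without deleted replicate 1, at 1.02 and 0.70 (adjusted exact permutation p = 0.0189 for each). The ratio of Taok3 to Taok2 (difference -0.25, adjusted exact permutation p = 0.341) and that of Rassf1 to Rassf2 (0.16, adjusted exact permutation p = 0.406) did not pass.

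**Figure D4:**
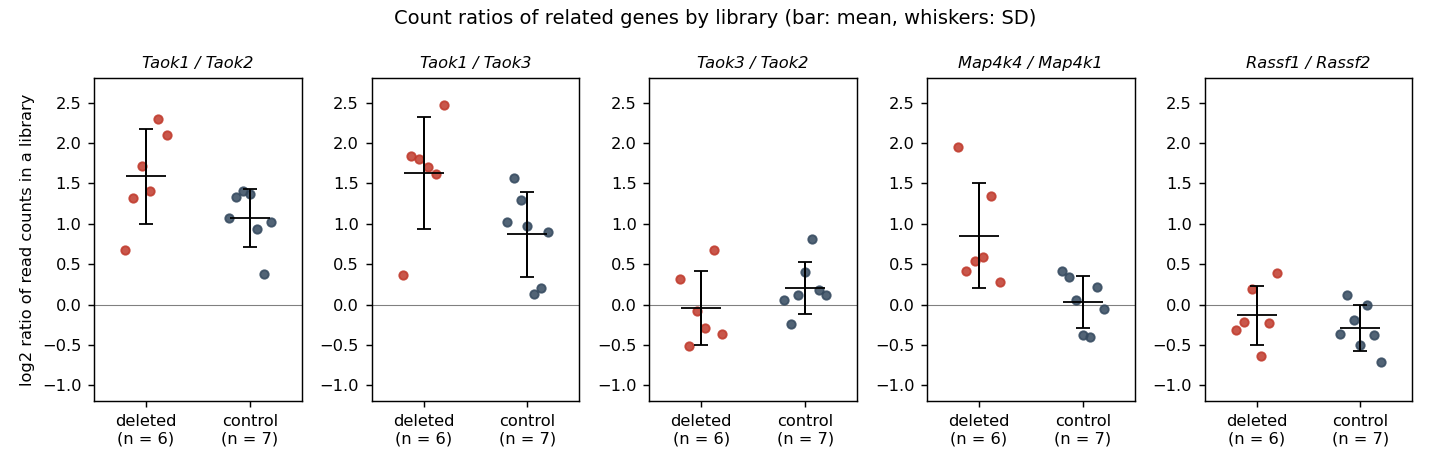
Log2 ratio of the read counts of related genes within a library (y axis) for 6 deleted and 7 control libraries (x axis), each point 1 library, with the mean (bar) and SD (whiskers). The Map4k4 to Map4k1 ratio averages 0.85 in deleted and 0.03 in control libraries, and deleted replicate 1, the first point of its group, is the lowest deleted library in both Taok1 ratios.

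The 9 genes also varied within the groups. Over 13 libraries, after removing group means from log2 CPM, Taok3 followed Rassf2 (Pearson's r = 0.908), Map4k4 (0.891) and Rassf1 (0.825). Without deleted replicate 1 (12 libraries) these were 0.918, 0.834 and 0.803. Taok1 followed none of the other 8, with r of -0.111 to 0.128 over 13 libraries and -0.09 to 0.295 without deleted replicate 1. These values are descriptive, since the points share library depth, receptor share and scaling. By the same measure, of 5203 other genes of at least 50 mean CPM, the most alike were Pikfyve (0.886), Cul2 (0.763) and Pwwp2a (0.742) for Taok1, Gabbr1 (0.934), Fam193b (0.905) and Rnf187 (0.887) for Taok2, and Rpl24 (0.98) and Gm1974 (0.976) for Taok3. Sdhb (0.964), Arhgap1 (0.963) and Slc25a4 (0.958) were most alike to Map4k1, and Ncl (0.957), Cdk11b (0.952) and Cyth1 (0.949) to Map4k4. For Nf2 they were Ebna1bp2 (0.827), Pdia6 (0.801) and Jak2 (0.8), for Rassf1 Ccdc47 (0.978), Cyfip2 (0.956) and Ywhae (0.947), for Rassf2 Dnajc5 (0.985), Mllt6 (0.976) and Resf1 (0.975), and for Strn3 Ktn1 (0.953), Ddx18 (0.911) and Creb1 (0.905).

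Among the wider Hippo lists, 55 genes were tested, the 9 included, of which 1 rose (1.82%, against 1.66% of all genes) and 3 fell (5.45%, against 8.52% of all genes). Their median log2 fold change was -0.04, against 0.06 over all genes tested. In the MAP4K list (7 genes), Map4k3, which links amino acid supply to mTORC1, rose while Map4k1 fell. In the same fit the receptor genes had a median of 0.58 and genes of at least 50 mean CPM a median of -0.38. The part of such shifts in either change was not tested. Map4k3 was at 41.0 ± 6.39 CPM (SD, n = 6) in cells with the deletion and 26.2 ± 3.30 CPM (SD, n = 7) in control cells, and its log2 fold change of 0.65 (SE 0.19) had an adjusted p of 0.0283 by edgeR. All 6 deleted libraries, at 33.6 to 50.4 CPM, lay above all 7 control libraries, at 22.2 to 32.4 CPM, as did 0.673% of all genes. The call on Map4k3 was lost with the receptor share in the model (0.66, adjusted p = 0.351), where that share was 0.7 to 1.4% (0.57, adjusted p = 0.356), and in 6 of the 13 fits that leave out 1 library. Those were the fits without deleted replicate 1, 3, 5 or 7 (adjusted p = 0.0506, 0.0557, 0.0594 and 0.0638) and without control replicate 4 or 6 (adjusted p = 0.0618 and 0.0534).

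In the STRIPAK list, 2 of 19 genes fell (10.5%, against 8.52% of all genes) and 0 rose. Ppp2r1a, the scaffold subunit of protein phosphatase 2A, was at 95.4 ± 16.8 CPM (SD, n = 6) in cells with the deletion and 206 ± 68.9 CPM (SD, n = 7) in control cells, which is -1.11 in log2 (SE 0.25) with an adjusted p of 0.00736 by edgeR. Fgfr1op2, a gene of a STRIPAK-bound coiled-coil protein, was at 68.6 ± 14.4 CPM (SD, n = 6) in cells with the deletion and 133 ± 54.0 CPM (SD, n = 7) in control cells, which is -0.96 in log2 (SE 0.26) with an adjusted p of 0.021 by edgeR. Both were also lower when genes of at least 50 mean CPM were fitted alone (-0.67, adjusted p = 0.00778, and -0.52, adjusted p = 0.0333 by edgeR), a fit in which another STRIPAK gene, Slmap, was higher (0.70, adjusted p = 0.0127, against 0.30 and 0.353 over all genes). Neither passed once the receptor share was in the model (adjusted p = 0.598 and 0.945) or where that share was 0.7 to 1.4% (adjusted p = 0.254 and 0.585). Fgfr1op2 also lost its call when all genes were scaled by those of at least 50 mean CPM (-0.52, adjusted p = 0.072), and without deleted replicate 3 or 7 (adjusted p = 0.0545 and 0.0597) or control replicate 5 or 6 (adjusted p = 0.0501 and 0.0508). None of 3 TAO kinase, 7 NF2 and WWC, 10 RASSF or 9 core genes passed over all genes. The smallest p in these lists belonged to Taok3 (adjusted p = 0.383), Nf2, Rassf5 (log2 fold change -0.75, adjusted p = 0.113) and Mob1b (0.27, adjusted p = 0.468).

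**Figure D5:**
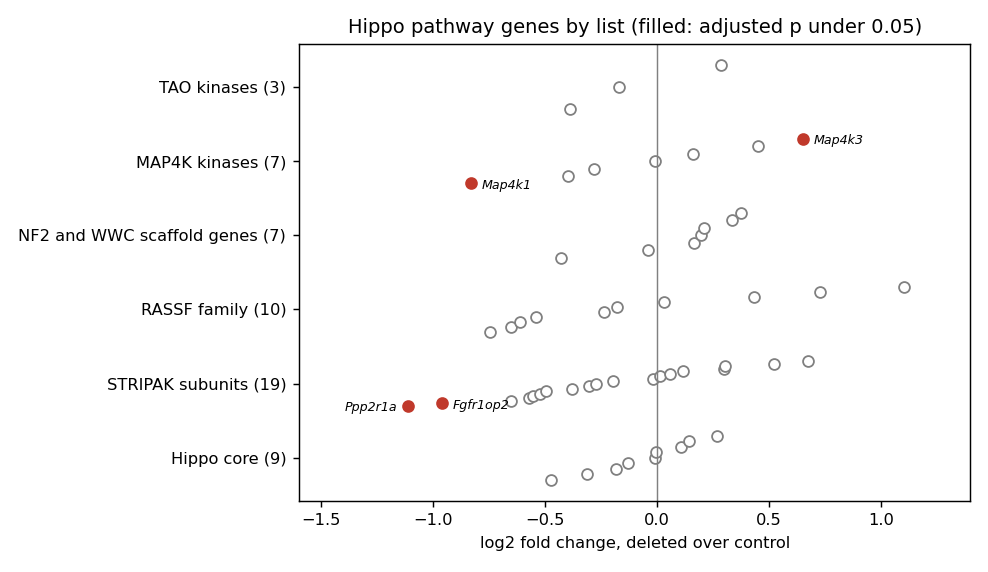
Log2 fold change of deleted over control (x axis) for 55 Hippo pathway genes in 6 lists (rows, with the number of genes), each point 1 gene, filled where the adjusted p is under 0.05. The filled points are Map4k1 (-0.83), Ppp2r1a (-1.11) and Fgfr1op2 (-0.96) below 0 and Map4k3 (0.65) above.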

How the data were processed

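For 13 libraries the deposited tables hold raw counts by gene, whole numbers with no normalization, and a table of their own log2 fold changes, p-values and false discovery rates, per the file headers. Group mean counts, a signal in the deposited tables, were not used. Per the submitters' processing notes, the tools include edgeR 3.28, DESeq2 1.26.0 and featureCounts 2.0.1, and the genome is GRCm38 or mm10. Not given in the sources used here are aligner, annotation and strand setting. The cDNA was made with SMART-Seq v4, per the labels' protocols. Gene numbers matched the GRCm38.p6 gene table for 93.6% of 26720 genes. Transcript lengths were not used, so levels are not compared between genes.

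Genes were kept by filterByExpr, scaled by TMM, and tested in R 4.3.3 with edgeR 4.0.16, with genotype as the only term, all 13 libraries and a threshold of 0.05 on the Benjamini-Hochberg adjusted p over all 24068 genes. The test was checked on simulated counts, where it called 37 of 100 genes changed 2-fold and 86 of 100 changed 4-fold, with 3 false calls. The changed genes were drawn at random from all genes past the filter, where 5204 of 24068 had at least 50 mean CPM. Over such a draw most changes of 2-fold or less can therefore be missed. The rate for genes at the level of the 9, 53.6 to 212 mean CPM, was not measured. Ratios of 5 pairs of related genes used counts plus 0.5 and two-sided exact permutation of 1716 splits. The genes and lists were chosen with earlier results of these data known. Genes named were the 9, Stk3 and Stk4, up to 3 genes of smallest p past the threshold in each list (or the 1 of smallest p), Slmap and Stk38, chosen after their values were seen, and for each of the 9 the 3 most alike genes, by Pearson's r of log2(CPM + 0.5) minus the group mean. Of the most alike genes of Taok3, 1 is not reported here. Marker lists covered Treg, B, CD8 T and NK, myeloid, and erythroid and platelet genes. The last 3 had 0 genes past the threshold, and their summed levels did not pass an exact permutation test (two-sided p = 0.0868, 0.124 and 0.0828). Alternatives were other scalings, filters, tools (DESeq2 1.42.0, limma 3.58.1), the replicate block, the receptor share and each library left out. Counts per library of the 9 genes ranged from 87 to 1177.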

Additional observations from a re-analysis of the deposited data

How the results depend on the processing

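Over 24 alternatives, Nf2 kept its direction and did not pass in any, Map4k1 stayed below 0 in all and passed in 15, and the causes of the other changes were not tested. Upper quartile scaling called 761 genes higher and 1208 lower, with Taok2 at 0.011. Scaling by genes of at least 50 mean CPM called 882 higher and 699 lower, of the 9 genes 1 higher and 0 lower, and of the 55 pathway genes 4 higher and 1 lower, with Taok2 at 0.17. Those genes fitted alone gave 813 lower (fewer genes tested), 2 of the 9 higher and 0 lower, 4 pathway genes higher, and Taok2 at 0.17. These 3 settings moved the median gene up by 0.18, 0.35 and 0.40. DESeq2 called 688 genes higher. Limma-voom called 1174 higher, 2 of the 9 lower, and 2 pathway genes higher and 9 lower, with Map4k4 at -0.051 and Strn3 at 0.00. The receptor share as a covariate left 54 genes higher and 56 lower, with 0 of the 9 and 0 pathway genes lower. In that fit 1 pathway gene was higher, the core gene Stk38 (0.998, adjusted p = 0.0373 by edgeR, against 0.106 and 0.849 over all genes). Stk38 was also higher when genes of at least 50 mean CPM were fitted alone (0.52, adjusted p = 0.0382 by edgeR). With the covariate, Taok2, Taok3, Rassf1 and Rassf2 were at 0.16, 0.33, 0.23 and 0.22. In libraries of similar receptor share 38 genes were higher and 101 lower, with 0 of the 9 lower, 0 pathway genes in either direction, Taok3 over Taok2 at 0.008 and Map4k4 over Map4k1 at 0.78.

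Same-numbered libraries did not deviate together (r of -0.32 to 0.413 over 6 numbers, and 0 deleted libraries correlated best with their own number). The replicate block, which leaves out control replicate 6, called 121 genes higher and 736 lower, 0 of the 9 lower, and 0 pathway genes higher and 1 lower, with Map4k1 at -0.74, Map4k3 at 0.63 and Fgfr1op2 at -0.77 (adjusted p = 0.124, 0.109 and 0.108 by edgeR). Map4k4 over Map4k1 was higher in the deleted library of all 6 same-numbered pairs, by 0.86 on average; its exact sign-flip p of 0.0312 is the smallest that 6 pairs can give, and 0.156 once adjusted over the 5 ratios, so this form could not have passed for 1 ratio alone.

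With each library left out in turn, 167 to 860 genes were higher and 1034 to 3245 lower, 0 to 2 of the 9 lower, and 0 to 2 pathway genes higher and 1 to 7 lower. Map4k1 was at -0.93 to -0.70 with adjusted p of 0.00377 to 0.0687 by edgeR. Map4k4 was at -0.14 without deleted replicate 1, and Strn3 at -0.074 without deleted replicate 1, -0.02 without control replicate 1 and up to 0.142 without control replicate 5. The log2 differences were 0.37 to 0.70 for Taok1 over Taok2, 0.60 to 1.02 for Taok1 over Taok3, -0.39 to -0.15 for Taok3 over Taok2, 0.61 to 0.94 for Map4k4 over Map4k1 and 0.05 to 0.26 for Rassf1 over Rassf2. With 87 to 1177 reads per library and gene, the spread between libraries, seen in intervals of about 1 on the log2 scale, limits what can be detected.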
